A study of Mus musculus with 8 samples.

Results

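The clustered protocadherins of the mouse are 58 genes whose symbols start with Pcdha, Pcdhb or Pcdhg and which lie within 1 Mb of chromosome 18 in mm10, called the interval here, with the first starting at base 36930285 and the last ending at base 37841873. The rule that picks them from the 49943 genes of the RefSeq table uses symbol and position and no methylation value. The cluster itself was chosen with earlier results of these data known. The alpha family has 14 members, the beta family 22 and the gamma family 22, with the transcribed pseudogene Pcdhgb8 counted among the last. Methylation was read by bisulfite sequencing of a reduced genome, an assay that covers mostly CpG-rich fragments, in a dissected layer of the mouse brain that the labels call dDG DGC, an abbreviation they do not spell out. One group of 4 male C57 BL/6 mice had self-administered cocaine. The other group was 4 male C57 BL/6 mice of the same labels with saline, whose titles also read Self-Administration. Each mouse gave 1 library. The labels state no age, dose or time of dissection. Of 1510385 CpG cytosines with at least 10 reads in all 8 libraries, 1319 lay in the interval.

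Clustered protocadherins are cadherin-like proteins of the neuronal surface that bind the same isoform on a neighbouring membrane and so help a neuron tell its own branches from those of other neurons. Each alpha and gamma variable exon has a promoter of its own and is spliced to constant exons shared by its family, whereas each beta gene is a single exon. A neuron uses a small set of these promoters, a choice known to involve the binding of CTCF and DNA methylation, with methylated promoters being silent. The last members of the alpha and gamma families, called C-types (Pcdhac1, Pcdhac2, Pcdhgc3, Pcdhgc4 and Pcdhgc5), are known to be used more evenly across neurons. A methylation level in dissected tissue is an average over cells and over both chromosomes, so a change within a cell type and a change in the mix of cells cannot be told apart.

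The libraries listed from 1844706 to 2236384 cytosines each, and the median coverage in the interval ranged from 37 reads in cocaine 3 to 74 in saline 3. Saline 1 stood apart. Among cytosines of the interval with a pooled level of 20% to 80%, 47 of 615 (7.64%) read exactly 0% or 100% in that library, against 0 to 14 of 615 in each of the other 7. The shares of intermediate cytosines, the differences of the stretches and the counts from the tests are also given without it. No label names molecular identifiers, and reads may be copies of few molecules, so the spread between mice is the error given.

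The most visible feature of the interval was the share of cytosines at intermediate levels. Pooled over the 8 mice, 615 of its 1319 cytosines (46.6%) had a level of 20% to 80%, against 17.2% of all common cytosines. The share was 43.4% of 318 cytosines in the alpha stretch, 50.7% of 144 in the beta stretch and 52.3% of 715 in the gamma stretch, but 21.1% of the 142 cytosines of the interval outside the families. Levels under 5% were held by 47.1% of all common cytosines, by 30.2% of alpha, 17.2% of gamma and 1.39% of beta cytosines. The median cytosine stood at 35.1% in alpha, 73.6% in beta and 29.9% in gamma, against 10.7% over all. Cytosines on 1 fragment share reads, so these shares describe the stretches and carry no test.

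**Figure D1:**
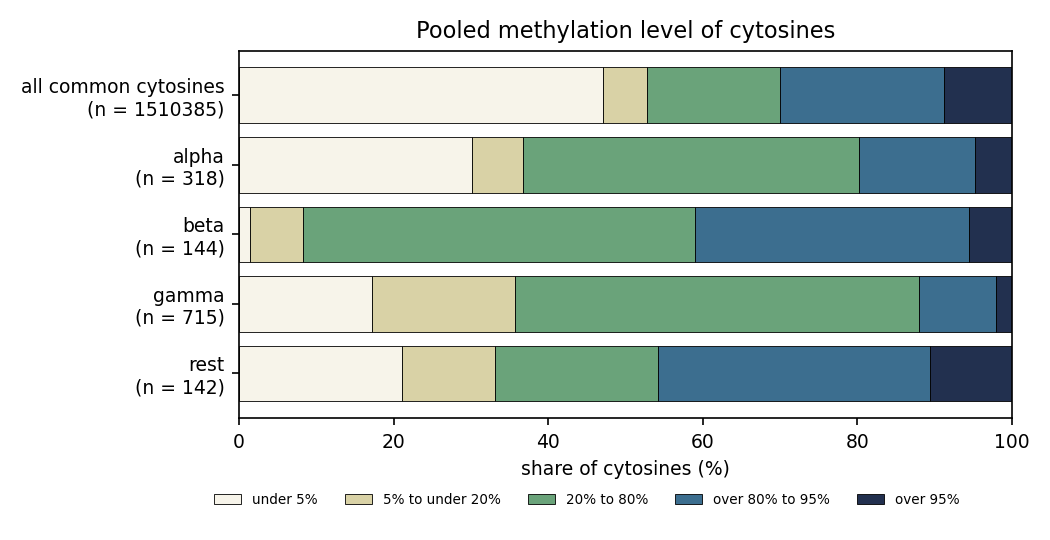
Share of cytosines (x axis, percent) in 5 classes of pooled methylation level, for all common cytosines and for the alpha, beta and gamma stretches and the rest of the interval (y axis, with the number of cytosines). The class of 20% to 80% takes 43.4% to 52.3% of the cytosines of the 3 families and 17.2% of all.

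The intermediate levels were seen in single mice too. Of the 615 intermediate cytosines of the interval, 203 (33.0%) were between 20% and 80% in each of the 8 libraries, and the same held for 64979 of 260005 (25.0%) over all. Without saline 1, 246 (40%) of the interval and 31.9% over all were so in each of the other 7. Summed over short regions (CpGs at most 100 bases apart, at least 3 of them), 64 of the 108 regions tested in the interval (59.3%) were intermediate, against 39.0% of 92484 regions over all. The median SD between mice at those intermediate regions was 4.71 points in the interval and 6.62 points over all. Tested regions of any level held a median of 6 CpGs in the interval and 4 over all. Where both strands of an intermediate CpG were read, the median difference between strands was 3.97 points in 83 CpGs of the interval and 6.22 points over all.

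To describe single genes, each member was given a start window from 500 bases before to 2500 bases after its annotated start, which holds the promoter and much of the variable exon, ending 500 bases before the next member's start if that came first. With at least 5 common cytosines required, 40 members were described. Pcdhb7, Pcdhb12 and Pcdhb16 had fewer. No common cytosine fell in the windows of 15: Pcdha6, Pcdha7, Pcdha9, Pcdha10, Pcdha11, Pcdhb4, Pcdhb6, Pcdhb8, Pcdhb9, Pcdhb11, Pcdhb13, Pcdhb18, Pcdhb19, Pcdhb21 and Pcdhb22. Over the 40, 32 windows (80%) had a mean level of 20% to 80%. The same windows of 13813 other genes, none of them on chromosome 18, had a median level of 1.16%, with 11.96% of them at 20% to 80% and 81.6% under 20%.

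Among the alpha genes, which encode receptors joined to the alpha constant region, 7 of the 12 that are not C-types were described, with a median of 47.9% and a range of 24.6% to 67.2%. Pcdha2, the highest, was at 69.3%, 71.3%, 70.2% and 71.7% in cocaine mice 1 to 4 and at 64.6%, 63.1%, 70.1% and 57.5% in saline mice 1 to 4. Pcdha12, the lowest of the 7, was at 19.4%, 27.8%, 20.95% and 24.7% in cocaine and at 25.4%, 27.9%, 24.9% and 26.1% in saline mice. For each of the pair the groups overlapped. The next highest were Pcdha4 (58.7%) and Pcdha8 (54.4%), and the next lowest Pcdha3 (29.8%) and Pcdha5 (35.8%). The cytosines of Pcdha2 and Pcdha4 all lay over 1000 bases past the start and those of Pcdha3, Pcdha5, Pcdha8 and Pcdha12 all before that, so this order mixes distances. Pcdha3 rests on 5 cytosines and spread from 16.2% to 44.7% over the 8 mice.

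For the beta genes, single-exon members that lack a shared constant region, 9 of 22 were described, with a median of 76.2% and a range of 49.97% to 86.8%. This median rests largely on cytosines far from the start, and 5 of the 9 (Pcdhb10, Pcdhb14, Pcdhb15, Pcdhb17 and Pcdhb20) had none from 250 bases before to 500 bases after it. Within 500 bases of the start the order of the families was another: the mean cytosine was at 38.9% in beta (33 cytosines), 46.8% in alpha (68), 23.5% in gamma (197) and 2.99% in the C-types (142). Pcdhb14 (86.8%), Pcdhb10 (82.2%) and Pcdhb17 (78.9%) were the highest, and Pcdhb1 (49.97%), Pcdhb5 (58.8%) and Pcdhb15 (64.3%) the lowest. Pcdhb14 and Pcdhb15 rest on 6 and 5 cytosines. Pcdhb15 spread from 50.7% to 75.7% over mice, so its neighbours in this order do not differ from it beyond its spread. Pcdhb1 spread from 44.6% to 54.2%.

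All 19 gamma genes outside the C-types were described, with a median of 43.2% and a range of 31.9% to 87.1%. The 12 of subfamily A had a median of 41.8% and the 7 of subfamily B one of 47.3%. Pcdhga7 was the highest, at 90.3%, 89.96%, 81.9% and 84.2% in cocaine and 96.9%, 81.0%, 86.8% and 86.2% in saline mice. Its 7 cytosines all lay over 1000 bases past its start, which bears on its place in the order (see the profile by distance). Pcdhgb5 (58.5%) and Pcdhgb7 (58.3%) came next, the latter also with 0 cytosines in the first 1000 bases. Pcdhgb6 (31.9%), Pcdhga11 (33.1%) and Pcdhga1 (34.1%) were the lowest, and they differed from each other by less than the SD of 5.45 points between mice of Pcdhga1.

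Over the full start windows, the C-type members were the lowest of their families. Their median was 4.57%, and none of the 5 reached 20%. Pcdhgc4 was at most 1.10% in any mouse (mean 0.37%, 27 cytosines), and Pcdhgc3 ranged from 0.47% to 3.06% (mean 1.74%, 92 cytosines). Pcdhac2 was at 5.11%, 4.16%, 2.54% and 3.71% in cocaine and at 5.68%, 6.82%, 5.13% and 3.45% in saline mice. Pcdhac1 had a mean of 13.1% and Pcdhgc5 one of 17.5%, with single mice of the latter from 9.69% to 23.5%. Pcdhgc5 was the only C-type of which a mouse passed 20%.

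**Figure D2:**
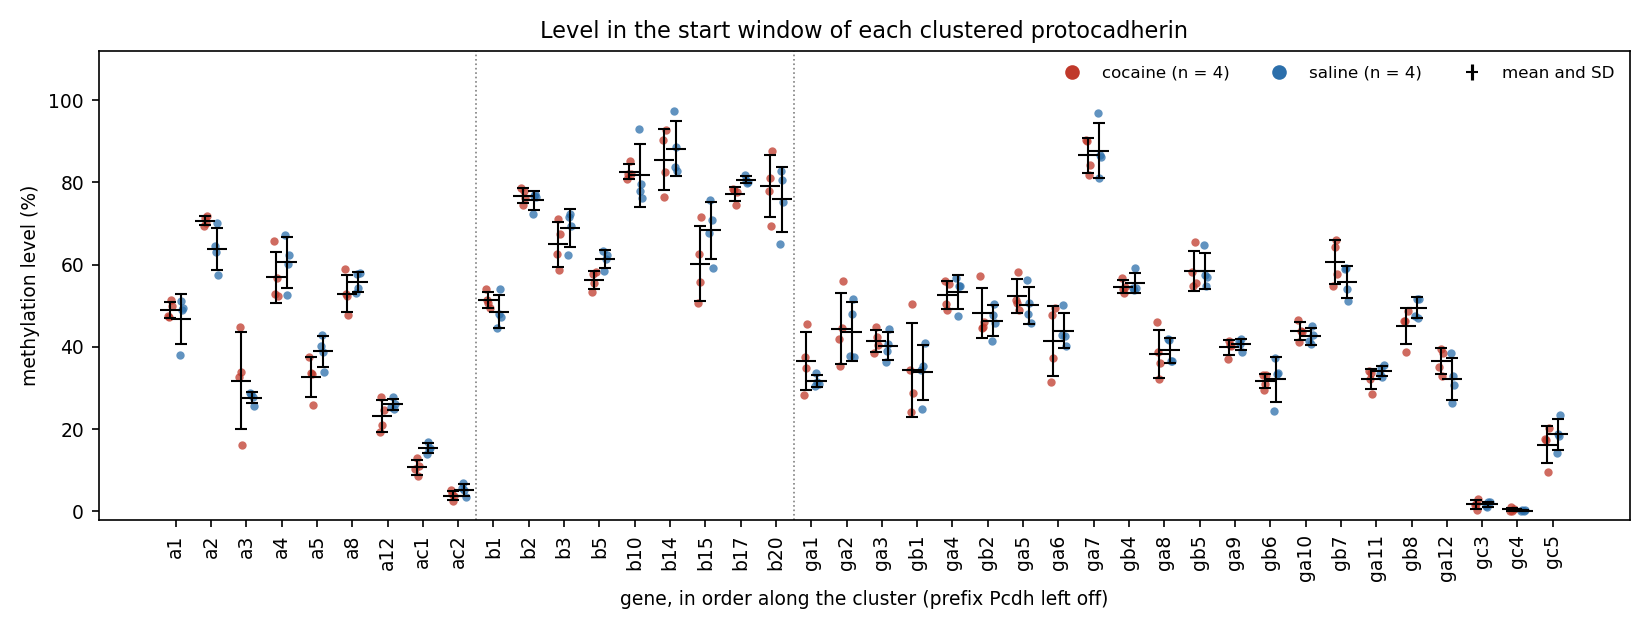
Methylation level (y axis, percent) in the start window of the 40 members with at least 5 common cytosines (x axis, in genomic order), 1 point a mouse, with mean and SD of 4 cocaine and 4 saline mice. The beta genes lie between 49.97% and 86.8% on average, most gamma genes between 31.9% and 58.5%, and the C-types at or under 17.5%.

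In gamma members the level was higher from 500 to 1500 bases past the start than within 500 bases of it. In the 13 gamma members with at least 2 common cytosines on both sides, the mean level was 21.7% (SD between mice 1.32, n = 8) within 500 bases of the start and 65.9% (SD 1.67, n = 8) from 500 to 1500 bases past it. The second stretch was higher in 13 of 13 members and, in each of them, in 8 of 8 mice, and the difference averaged over members was 42.8 to 46.3 points in single mice. It was steepest in Pcdhga2, from 13.6% to 89.8%, and in Pcdhga1, from 25.2% to 89.1%. It was flattest in Pcdhga11, from 19.8% to 39.0%, and in Pcdhga10, from 24.6% to 43.8%. Pcdhgb6, with the lowest start of the 13 at 5.60%, reached 62.4%. In 5971 other genes measured the same way the median difference was 0.379 points, and 8.31% of them rose by over 40 points, as 8 of the 13 gamma members did.

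Of the other families, 3 beta members could be compared. Pcdhb1 went from 28.1% to 80.5% and Pcdhb2 from 32.4% to 82.3% in 8 of 8 mice each, while Pcdhb3 was at 65.9% and 67.0% and higher in 4 of 8. The 3 alpha members had no such rise. Pcdha5 was at 43.9% near the start and 29.2% beyond it, lower in 8 of 8 mice, and Pcdha8 was at 57.2% and 58.7%. In the C-types, cytosines from 250 bases before to 500 bases after the start were set beside those from 1000 to 2500 bases past it. Pcdhac1 had 6.69% in 46 cytosines near the start and 51.1% in the 9 farther ones, and Pcdhac2 had 0.66% and 18.4%. For Pcdhgc5 the values were 11.7% and 23.2%, and for Pcdhgc3 0.36% and 4.69%. Pcdhac1 and Pcdhgc5 had 0 common cytosines from 500 to 1500 bases past the start, so where their level changes cannot be seen. The level of a start window thus depends on where its cytosines fall: with 1000 bases in place of 2500 after the start, the median was 35.8% in alpha, 66.9% in beta, 34.7% in gamma and 0.88% in the C-types.

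**Figure D3:**
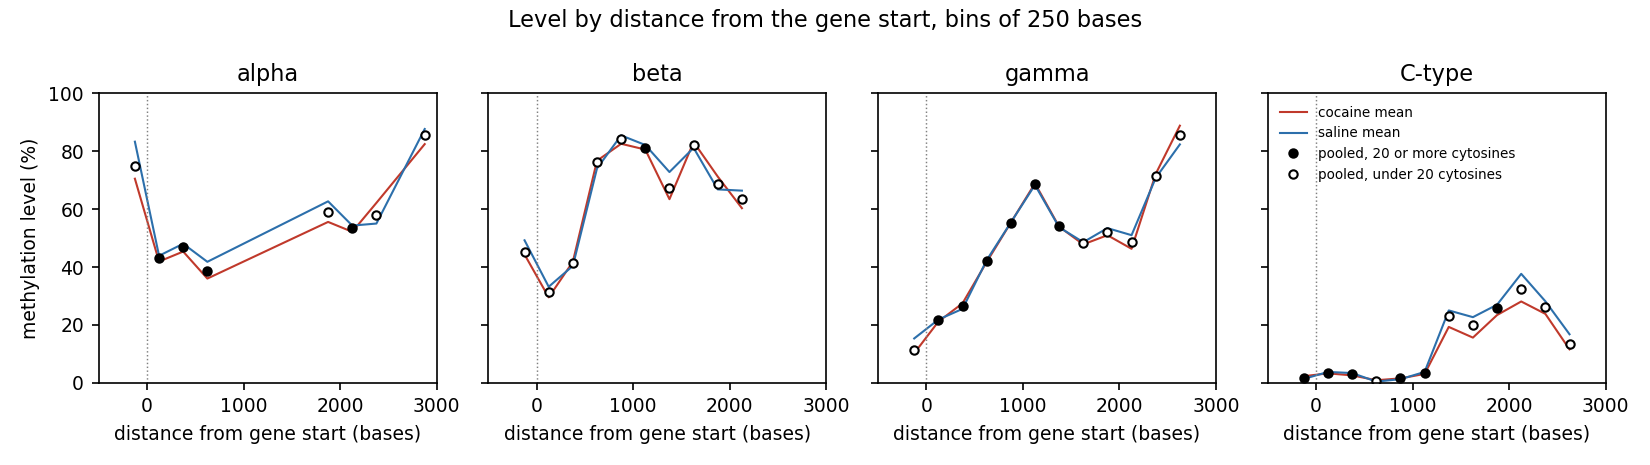
Pooled methylation level (y axis, percent) by distance from the gene start in bins of 250 bases (x axis) for alpha, beta, gamma and C-type members, with the means of the cocaine and saline mice as lines and bins under 20 cytosines as open circles. The gamma level goes from 21.6% in the first 250 bases to 68.6% between 1000 and 1250 bases and is 54.1% in the next bin. Bins differ in which members they hold.

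Outside the families the level differed from place to place. Past the gamma constant exons, 25 cytosines had a mean level of 9.53%. Between the alpha and beta families 30 cytosines had a mean of 41.7%, and between beta and gamma 83 had one of 64.8%. These means sum reads over sites of unlike level. The tested regions between alpha and beta were at 79.2%, 81.8% and 86.4%, and those between beta and gamma ranged from 6.30% to 92.3%.

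The comparison of the 2 groups asks whether cocaine self-administration goes with another methylation level of the cluster. Summed over each stretch with every read counted, the alpha stretch (chr18:36930285-37188897) was at 36.2%, 31.8%, 30.9% and 32.1% in cocaine and at 34.7%, 37.2%, 36.8% and 34.4% in saline mice. Cocaine 1 lay inside the saline range and the other 3 cocaine mice lay below it, and the means were 32.7% ± 2.38 and 35.8% ± 1.42 (SD, n = 4 each). The beta stretch (chr18:37264998-37521419) was at 67.4% ± 1.53 in cocaine and 68.9% ± 1.29 in saline mice (SD, n = 4 each), with overlapping groups. The gamma stretch (chr18:37661775-37841873) was at 35.5% ± 2.13 and 35.5% ± 0.35 (SD, n = 4 each), a difference of 0.01 points. Over the whole interval the difference was -0.76 points, and over all common cytosines it was -0.95 points. Without saline 1 the alpha, beta and gamma differences were -3.36, -2.15 and 0.14 points.

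Weighting each cytosine alike changed these values. The alpha difference became -1.87 points, the beta one -1.67 and the gamma one -0.25. The whole interval was then at 42.5%, 42.3%, 41.2% and 42.2% in cocaine and at 42.6%, 42.8%, 43.1% and 42.9% in saline mice, so that the groups did not overlap. Their difference of -0.80 points stood beside one of -0.73 points over all common cytosines.

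**Figure D4:**
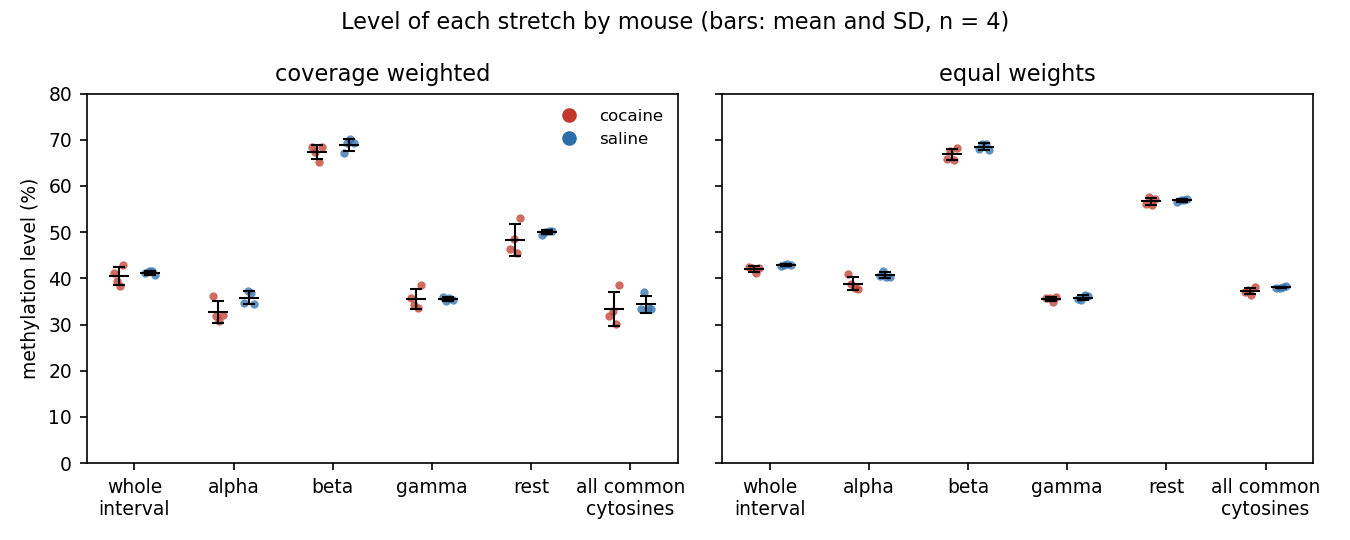
Methylation level (y axis, percent) of the whole interval, its stretches and all common cytosines (x axis), 1 point a mouse with mean and SD of 4 mice, with reads summed (left) and each cytosine weighted alike (right). The gamma groups sit at the same mean of 35.5% with reads summed, and in the alpha stretch 3 of 4 cocaine mice lie below every saline mouse.

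For tests across the genome, the methylated and unmethylated reads of each feature were fitted by a logistic model with spread between mice, moderated with limma, and p-values were adjusted over all features by Benjamini-Hochberg. In 100 kb tiles, 0 of the 10 tiles of the interval passed an adjusted p of 0.05, as did 0% of the 14603 tiles of the genome. At an unadjusted p under 0.05 there were 2 of 10, against 4.94% over all. Limma on logit levels gave 2 as well (5.51% over all), as did the fit without saline 1 (5.11% over all). Both tiles were lower in cocaine mice. The tile chr18:37100001-37200000, which holds the Pcdhac2 start, was at 16.4% ± 2.04 and 20.8% ± 1.32 (SD), with an adjusted p of 0.928 and overlapping groups. The tile chr18:37300001-37400000, which holds Pcdhb3 to Pcdhb8, was at 62.2%, 66.7%, 61.4% and 67.0% in cocaine and at 70.6%, 68.9%, 70.1% and 68.3% in saline mice. Its groups did not overlap, which held for 3.47% of all tiles, and its adjusted p was 0.928.

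The other 8 tiles differed by less. The first, chr18:36900001-37000000, was at 51.5% in cocaine and 52.7% in saline mice, and the next, with Pcdha12 and Pcdhac1, at 27.7% and 31.5%. From chr18:37200001 the pairs were 60.6% and 60.8%, and from chr18:37400001, among the later beta genes, 73.6% and 76.0%. From chr18:37500001 they were 83.6% and 83.0%, and from chr18:37600001, with the first gamma genes, 44.5% and 43.0%. The tile of most gamma starts, from chr18:37700001, was at 45.1% and 44.9%, and the last, with the gamma C-types and constant exons, at 5.85% and 6.77%. Without both saline 1 and cocaine 3, 0 of 10 tiles had an unadjusted p under 0.05, beside 3.51% over all.

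Member by member, 22 of the 40 start windows (55%) were lower in cocaine mice, against 60.4% of the windows of other genes. The median difference was -0.62 points beside -0.14 points. The other windows had a median level of 1.16%, which leaves little room for a fall, so these 2 medians are not on a like footing. The difference was largest for Pcdhb15, at 8.15 points. Groups did not overlap in 3 of the 40, beside 3.15% of the other genes' windows, and all 3 were lower in cocaine mice. These windows were described with no test. Pcdhac1 was at 10.4%, 13.1%, 8.64% and 10.99% in cocaine and at 14.1%, 16.9%, 15.2% and 15.3% in saline mice. Pcdhb5 was at 53.4%, 57.7%, 55.5% and 58.1% against 63.4%, 58.5%, 61.4% and 62.4%, where cocaine 4 and saline 2 nearly met. Its window holds 21 of the 36 cytosines of the tile chr18:37300001-37400000 described above, so window and tile share reads. Pcdhb17 was at 78.4%, 78.1%, 74.6% and 77.8% against 81.9%, 80.7%, 79.9% and 80.2%. The gamma difference between the bases beyond and near the start was 44.2, 43.0, 42.9 and 42.8 points in cocaine and 46.2, 46.3, 44.7 and 43.9 points in saline mice. Cocaine 1 lay inside the saline range and the other 3 cocaine mice below it, and the means were 43.2 ± 0.65 and 45.3 ± 1.17 points (SD, n = 4 each). Near the start the gamma level was 21.9% in cocaine and 21.5% in saline mice, and beyond it 65.1% and 66.7%.

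Of 108 regions in the interval, 0 passed an adjusted p of 0.05 with a difference of at least 10 points, as did 0% of the 92484 regions of the genome. An unadjusted p under 0.05 was reached by 6 (5.56%), 5 lower and 1 higher in cocaine mice, beside 5.65% over all. Limma on logit levels gave 3, beside 5.14% over all. Without saline 1 there were 8 of 109, beside 6.12% over all. Groups did not overlap in 4 (3.70%), beside 3.29% over all. The difference was negative in 65 (60.2%), as in 61.8% of all regions. Lower regions made up 16 of 22 in alpha, 13 of 21 in beta and 28 of 50 in gamma. Their median difference was -2.26 points in alpha, -2.15 in beta and -0.82 in gamma, beside -1.06 over all regions.

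The smallest p of the interval belonged to chr18:37285411-37285505, 6 CpGs that lie 20413 bases past the Pcdhb1 start and outside any start window. It was at 60.3%, 64.9%, 66.8% and 65.6% in cocaine and at 75.1%, 72.5%, 75.2% and 73.8% in saline mice, so every cocaine mouse was lower than every saline mouse. The means were 64.4% ± 2.81 and 74.2% ± 1.30 (SD), and the adjusted p was 0.876. Over the alternatives tried the difference stayed between -10.6 and -8.41 points, with adjusted p-values of 0.741 to 0.970.

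In the alpha family 3 regions had an unadjusted p under 0.05, each with an adjusted p of 0.876. The 9 CpGs of chr18:37091983-37092177, 1847 bases past the start of Pcdhac1, were at 41.1%, 47.8%, 43.0% and 49.6% in cocaine and at 58.9%, 52.4%, 51.4% and 55.2% in saline mice, without overlap. This region lies in the Pcdhac1 window described above and shares its reads. In chr18:36960713-36960994, which begins 437 bases past the Pcdha5 start, levels were 36.6%, 29.7%, 31.7% and 25.6% against 39.5%, 43.4%, 36.5% and 31.5%. In chr18:36992333-36992414, just before the Pcdha8 start, they were 80%, 75.8%, 72.2% and 52.8% against 83.3%, 89.8%, 81.1% and 79.4%, and without cocaine 4 the difference fell to -7.40 points. The groups of both overlapped. A region nearer to the Pcdha5 start, chr18:36960465-36960562, differed by -2.36 points.

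In the gamma family the 3 CpGs of chr18:37822667-37822747, past the Pcdhgc5 window, were at 9.22%, 28.1%, 18.8% and 21.0% in cocaine and at 16.98%, 36.5%, 34.8% and 45.9% in saline mice. The spread within each group was wide and the groups overlapped. The one region that was higher, chr18:37754042-37754222, 2423 bases past the Pcdhgb7 start, was at 80.8%, 82.0%, 84.4% and 86.5% against 78.0%, 78.0%, 81.1% and 76.7%, where cocaine 1 lay below saline 3. Both had an adjusted p of 0.876. Without saline 1, the regions past Pcdhac1 and Pcdhgb7 no longer had an unadjusted p under 0.05.

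**Figure D5:**
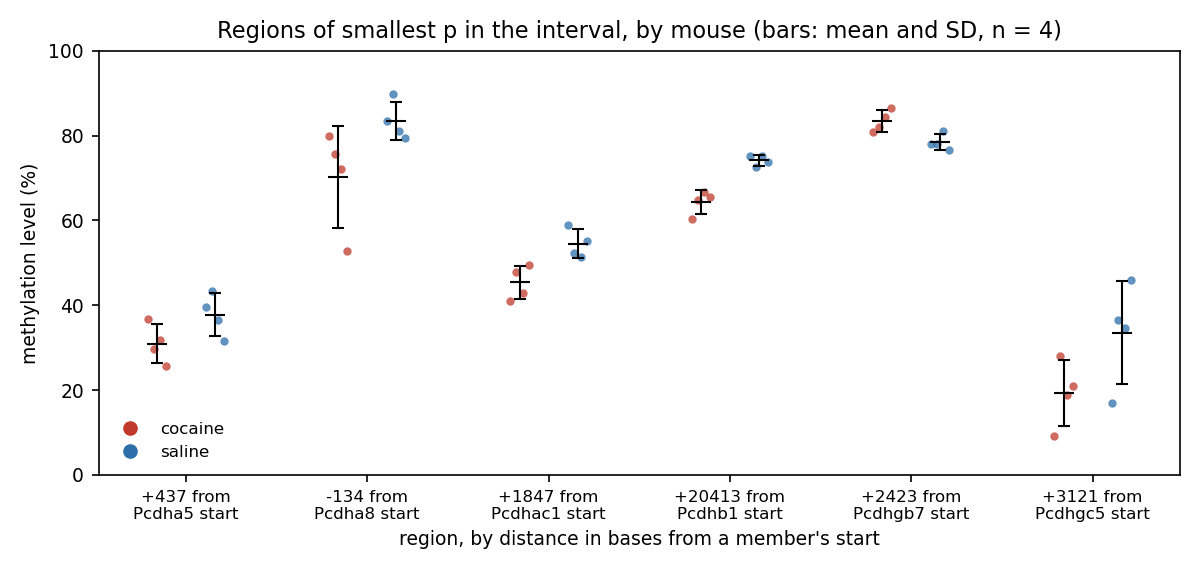
Methylation level (y axis, percent) of the 6 regions of the interval with an unadjusted p under 0.05 (x axis, by distance in bases from a member's start), 1 point a mouse with mean and SD of 4 cocaine and 4 saline mice. The groups are apart at the regions past Pcdhac1 and Pcdhb1 and overlap at the other 4.

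Windows of 1 kb either side of each gene end gave 31 windows in the interval. Of these, 0 passed an adjusted p of 0.05 with at least 5 points, as did 0% of 6776 over all. An unadjusted p under 0.05 was seen in 1 (Pcdha5), beside 5.81% over all, and in 0 with limma on logit levels. In none of the 31 were the groups apart, beside 3.67% over all. The Pcdha5 window was at 32.6% ± 4.86 in cocaine and 38.9% ± 3.82 in saline mice (SD), with an adjusted p of 0.813, and without saline 1 it no longer had an unadjusted p under 0.05. Next among the lower windows came Pcdhb17 (83.6% and 89.0%) and Pcdha8 (53.0% and 55.8%). The highest in rank among those above saline were the Pcdhb2 end (67.8% and 63.0%), Pcdhgb4 (63.7% and 56.2%) and Pcdhgb6 (6.46% and 4.65%), none of them at an unadjusted p under 0.05. The Pcdhgb4 window held 5 cytosines. A region that begins at its edge, chr18:37721364-37721533, went the other way. It was at 65.0% in cocaine and 72.6% in saline mice, without overlap and with an adjusted p of 0.895 in the test of regions. The annotated end shared by most gamma members was at 7.625% and 9.08%.

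Among single cytosines, 0 of 1015 in the interval passed an adjusted p of 0.05 with at least 10 points, beside 0.00015% (1 cytosine) of 666028. An unadjusted p under 0.05 was found at 71 (6.995%), beside 6.1% over all, and 51 of the 71 were lower in cocaine mice. Without saline 1 there were 66. Reads of both strands and of neighbouring cytosines are shared, so these 71 are not separate events. Their p-values used a trend of spread shared by all cytosines, not each cytosine's own spread between mice.

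Genes that act with the cluster were read from 3 lists, by the regions lying in them. Of 21 regulators of the cluster (DNA methyltransferases, CTCF, cohesin and silencing factors), 17 had a region, and 4 of 77 regions had an unadjusted p under 0.05 (5.19%, beside 5.65% of all regions), all lower. The smallest p lay in Dnmt3a, a de novo DNA methyltransferase, at 47.4% ± 9.42 in cocaine and 65.6% ± 5.48 in saline mice (SD, 3 CpGs), and then in Wiz, a zinc finger partner of histone methyltransferases, at 52.9% and 63.4%. Of 16 intracellular partners, 11 had a region, with 4 of 62 lower and 1 higher at that p (8.06%). Brk1 and Cyfip2, subunits of the WAVE complex that drives actin branching, were at 63.5% and 79.2%, and at 10.5% and 22.3%. Of 12 protocadherins outside the cluster, 8 had a region, with 3 of 39 lower and 2 higher (12.8%, a total of 5 regions). Pcdh9 was at 62.5% and 71.8%, and Pcdh11x at 81.6% ± 24.8 and 97.9% ± 2.74 (SD). The higher regions lay in Wasf1, another subunit of the WAVE complex (59.7% in cocaine and 44.3% in saline mice), in Pcdh19 (17.3% ± 18.4 and 4.43% ± 3.77, SD) and in Pcdh15 (82.9% and 69.3%). None of these regions passed the adjusted test (adjusted p of 0.876 for each one named), and the lists' median differences were -0.43, -1.45 and -0.33 points beside -1.06 over all regions.

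Methylation at genes that mark cell types was set beside these values. Markers of granule cells of the dentate gyrus were at 25.7% ± 1.75 in cocaine and 27.1% ± 0.71 in saline mice (SD, n = 4 each). The means were 26.7% and 28.4% for pyramidal cells, 48.5% and 49.3% for oligodendrocytes, 28.8% and 30.9% for astrocytes and 76.8% and 78.2% for microglia. The groups overlapped for all 5 lists. Methylation of a marker gene does not give its expression, so the label was not checked by these values, and the part of cell mix in the differences was not tested.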

How the data were processed

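Levels and coverage per CpG cytosine and strand were deposited for 8 libraries, 4 per group by the sample titles. Per the submitters' processing notes the authors used bcl2fastq, Bismark 22.1 and mm10. How reads were trimmed or deduplicated is not given in the sources used here. Per the file headers the level is a percent, but what was deposited is a fraction (0 to 1), multiplied here by 100. Coverage was deposited as read counts of at least 10 per cytosine. Level times coverage was a whole number at 100% of cytosines (within 1e-06 per read), so methylated reads were recovered by rounding. Totals ranged from 87964952 to 141775386 reads per library.

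Cytosines with at least 10 reads in all 8 libraries were used. Gene starts came from the RefSeq GRCm38.p6 table, whose chromosomes have the coordinates of mm10. Stretches run from a family's first to last base, and their levels carry no p. Start windows of other genes, and the comparison of levels near and beyond starts, were added after values had been seen, as was the share of intermediate cytosines without saline 1. Features with a pooled level of 5% to 95% (tiles: any) were fitted by quasi-binomial logistic regression on group. Dispersions had a floor of 1 and were moderated with limma 3.58.1 (R 4.3.3), and p-values adjusted by Benjamini-Hochberg over the genome. For single cytosines the moderation used only the trend shared by all. The fits were tested on simulated data. P-values of tiles, regions and gene end windows rest on the spread between mice, 1 library each, drawn toward a shared trend. Those of single cytosines rest on that trend and not on each cytosine's own spread.

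All stretches and tiles are named. Regions and gene end windows are named by smallest p in each direction, and start windows by the 3 highest and lowest of a family and the C-types. Windows without overlap between groups, the steepest and flattest members, the higher regions of the lists and the region at the edge of the Pcdhgb4 window were named after their values were seen. The members, lists and tests were chosen with earlier results of these data known.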

Additional observations from a re-analysis of the deposited data

Results flagged for a closer look

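Within groups of 4 mice, 10 of 160 groups (6.25%) held a mouse that lay far from the other 3 by Dixon's criterion, which chance alone meets in about 1 of 20 groups. For all common cytosines, saline 2 was at 37.03%, with the other saline mice at 33.3% to 33.6%. In the tile from chr18:37600001, cocaine 4 was at 47.4% (others 43.2% to 43.7%). Of the alpha regions, that from chr18:36932330 past the Pcdha1 start had saline 1 at 41.2% (others 48.7% to 49.4%). Of the beta regions, that from chr18:37388101 had cocaine 1 at 77.0% (others 86.8% to 88.0%), and that from chr18:37413205 past Pcdhb10 had cocaine 4 at 89.4% (others 92.5% to 93.0%). Between the beta and gamma families, the region from chr18:37655533 had cocaine 2 at 9.17% (others 5.33% to 5.96%). The region from chr18:37685953 in Pcdhga4 had saline 1 at 82.3% (others 72.4% to 73.9%). Among start windows, Pcdhb2 had saline 1 at 72.2% (others 76.5% to 77.1%), Pcdhgb2 had cocaine 1 at 57.3% (others 44.5% to 46.2%) and Pcdhgb4 had saline 3 at 59.1% (others 53.9% to 54.4%).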

How the results depend on the processing

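No feature of the interval was called under any alternative run. Leaving out 1 mouse at a time moved the difference to between -4.17 and -2.38 points in alpha, -2.15 and -0.83 in beta, -0.97 and 0.63 in gamma, -3.27 and -0.75 outside the families and -1.54 and -0.09 over the interval. With strands merged and CpGs weighted alike, the difference was -1.035 points in alpha and 0.65 in beta. Only CpGs read on both strands enter there, 42 in alpha and 15 in beta, so the set of sites changed along with the merging. Median start window levels with 1000 bases after the start were 35.8% in alpha, 66.9% in beta, 34.7% in gamma and 0.88% in C-types, and with at least 20 reads 41.9% in alpha and 41.0% in gamma. Counts at an unadjusted p under 0.05 also varied when 1 mouse was left out. Tiles ranged from 0 (without saline 3) to 3 (without cocaine 4), and regions from 4 to 10 (10 without saline 4). Gene end windows ranged from 0 to 1 and cytosines from 50 to 83. The share of all tiles at that p was 4.11% without saline 3 and 15.7% without cocaine 4, beside 4.94% with all mice. Without saline 1 and cocaine 3 the counts were 0 tiles (beside 3.51% of all tiles) and 0 end windows. With limma on logit levels they were 3 regions (beside 5.14% of all regions) and 0 end windows. Merging strands keeps only CpGs read on both strands, 179 in the interval before the filter on level, and gave 9 CpGs. That count is thus not on a like footing with those of single cytosines. Some directions turned: the region from chr18:36932330 with at least 20 reads (-1.17 points) and without saline 1 and cocaine 3 (-0.10), that from chr18:37236727 (-5.10 to 1.65 leaving out 1 mouse) and that from chr18:37655533 (-0.39 to 1.04). The cause was not tested. Deviations of mice of the same number had r of -0.02, -0.01, 0.01 and 0.08, and those of mice of unlike number had r of -0.14 to 0.06. Whether the numbers mark pairs is not settled by these values. A replicate block gave 2 tiles, 6 regions, 1 end window and 61 cytosines at an unadjusted p under 0.05. With 1 mouse of each number per group, a block cannot alter the difference of a stretch. The alpha value of -3.01 points is thus the same by construction and is no check.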
